A study of Mus musculus with 9 samples.

Results

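The comparison set 3 arrays of mouse adipocytes that carried hairpin 1 against Ebf1 beside 3 arrays of the same cells with a scrambled hairpin, 6 of the 9 arrays in the series. The members were taken by their titles. The cells were mature 3T3-L1 adipocytes, a clonal mouse preadipocyte line that is turned into fat cells in culture. All groups, controls included, went through 3 to 4 rounds of lentiviral infection and were held in puromycin at 5 µg/ml for at least 8 days, so the control cells had met virus and antibiotic too. The other 3 arrays carried hairpin 2, a different short hairpin against the same mRNA, and enter here through the common estimate of spread and through a direct test between the hairpins. Neither the promoter that drove the hairpins nor the hairpin sequences are given in the sources used here, and the titles number the arrays as repeats without saying whether these were separate cultures. The p-values below therefore measure the spread between arrays, which may be technical. All 18193 genes with a probe set of their own were considered, and the 12735 whose mean signal over the 9 arrays reached 5.72 on the log2 scale were tested.

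Ebf1 is a DNA-binding protein of the early B cell factor family, known for its part in B cell development and in the making of fat cells, where it acts with Pparg and the C/EBP proteins. It binds a palindrome with the core CCCNNGGG. Fat cells also answer interferon: the signal passes through Jak kinases to Stat2 and Irf9, which bind elements built on repeated GAAA letters and switch on antiviral, antigen-processing and chemokine genes. Surrounding matrix, secreted by preadipocytes and fibroblasts and less by mature fat cells, is built from collagens that are crosslinked by lysyl oxidases and spaced by small proteoglycans.

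Values are RMA signals on the log2 scale, in which a difference of 1 is a factor of 2. Array medians lay between 6.31 and 6.38 in the 2 groups, and correlations between a hairpin 1 and a scrambled array between 0.982 and 0.987 over the genes tested. The median SD of a gene was 0.066 over the scrambled arrays and 0.118 over the hairpin 1 arrays. Over the genes that rose, the first hairpin 1 array stood nearer to the controls than the other two, and the class counts that move without it are given with the values by array at the end. In bulk RNA, fewer cells of a type and less RNA per cell cannot be told apart. Differences below are hairpin 1 minus scrambled in log2 units unless another is named, adjusted p-values are from limma over the 12735 genes, and "rose" and "fell" are used of genes with an adjusted p below 0.05. A gene is given by its probe set with the highest signal. With the mean of all its probe sets instead, 71 of the 221 genes named below that were called had differences over 1.5 times smaller, and Aco1, Ckm, Cspg4, Laptm5, Nus1 and Prkaca lost their calls.

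The knockdown was partial. On the Ebf1 probe set with the highest signal the scrambled arrays read 10.12, 10.15 and 10.31 and the hairpin 1 arrays 9.32, 9.54 and 9.45 (difference -0.75, SE 0.113, adjusted p = 0.000102), and the groups did not overlap. Over all probe sets, 3 of the 5 for Ebf1 fell, to between 46.7% and 59.3% of the scrambled level. The weakest of the others above the array floor read 8.33, 8.27 and 8.18 on the scrambled arrays and 7.44, 8.01 and 7.96 on the hairpin 1 arrays, a difference of -0.46 that missed the threshold (adjusted p = 0.0501 over all probe sets). The last one read between 5.15 and 5.52 on all 6 arrays, near the floor. Among the paralogs, which bind the same sequence, Ebf2 read 6.95, 6.94 and 6.97 and then 7.14, 7.41 and 7.31, and Ebf3 read 9.32, 9.32 and 9.31 and then 9.40, 9.23 and 9.27. Ebf2 passed the test (0.33, adjusted p = 0.0163) and lost that call when any of 4 arrays was left out (adjusted p up to 0.0756), whereas Ebf3 differed by -0.02 (adjusted p = 0.883).

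Of the 12735 genes, 4199 were called, or 33.0%. Those that rose numbered 3023 (23.7%) and those that fell 1176 (9.23%), and these shares are the background for the gene classes below, beside the shares by signal given further on. With the deposited values quantile-normalized, 2459 rose and 1700 fell, so rises made up 59.1% of calls in place of 72.0%. Most changes were small: 846 genes rose and 435 fell by at least 0.5, 127 and 125 by at least 1, and 9 and 23 by at least 2. Falls of at least 3 were measured for 7 genes and rises of that size for 0. The median over all genes was 0.0675, and 533 calls were smaller than 0.25 in size. Groups that did not overlap were counted for 43.4% of genes tested, among them 2920 of the genes that rose and 1089 of those that fell.

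**Figure D1:**
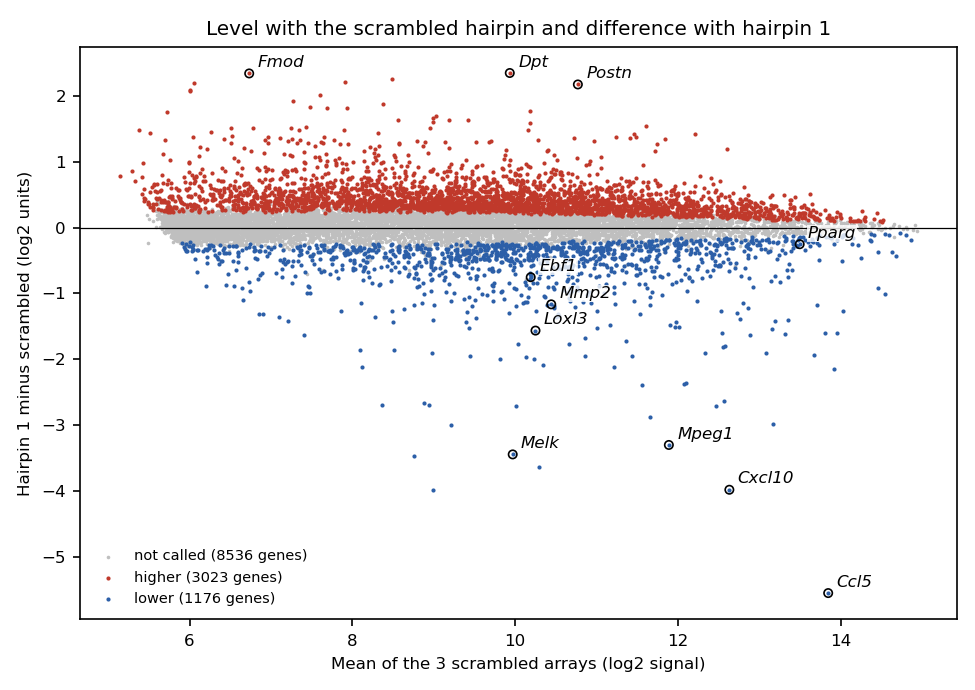
Each point is 1 gene, with the mean of the 3 scrambled arrays in log2 units on the horizontal axis and the hairpin 1 minus scrambled difference in log2 units on the vertical axis. Rises, in red, stop short of 2.5, while falls, in blue, reach down to -5.55 for Ccl5, and the calls thin out toward the low end of the signal.

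Calls followed signal. Among the 3184 genes of lowest mean signal, up to 7.12, 9.17% rose and 3.80% fell. Among the 3184 of highest signal, from 10.6 upward, 34.3% rose and 12.4% fell. Classes of dim and of bright genes are to be read against these shares. Median levels on the scrambled arrays were 6.59 for the TNF superfamily, 6.84 for cadherins, claudins and other adhesion genes and 6.85 for ion channels and pumps. They were 7.08 for G protein-coupled receptors and 7.11 for receptor tyrosine kinases. Such medians lie close to the 7.12 where the dimmest genes end, so many members are brighter than that. Of the genes next in signal, up to 9.06, 24.1% rose and 8.67% fell. The shares of these classes stand beside both sets, not the dimmest genes alone.

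The 20 lowest differences ran from -5.55 to -2.11. The lowest was that of Ccl5, a chemokine that draws T cells, which read 13.89, 13.78 and 13.86 on the scrambled arrays and 7.90, 8.36 and 8.64 with hairpin 1 (-5.55, SE 0.167, adjusted p = 3.98e-12). Cxcl10, an interferon-induced chemokine, went from 12.75, 12.51 and 12.64 to 8.45, 8.69 and 8.82 (-3.98). No array of either group reached the other for these genes, as in 1089 of the 1176 genes that fell. Beside them stood genes with other roles. Melk, a kinase gene of dividing and stem-like cells, read 9.95, 9.99 and 9.97 and then 6.61, 6.49 and 6.49 (-3.44, SE 0.111, adjusted p = 5.83e-12). Mpeg1, a pore-forming protein best known from macrophages, fell from 11.87, 11.89 and 11.91 to 8.39, 8.60 and 8.78 (-3.30), and Pla1a, a secreted phospholipase that acts on phosphatidylserine, from 9.10, 9.20 and 9.36 to 5.99, 6.34 and 6.34 (-2.997). Colec11, a soluble lectin of the complement system, ended at 5.08, 5.34 and 5.42, which is near the floor, so that its difference (-3.47) may be compressed. The remaining names among the 20 lowest were Plscr2 (-3.99), Mx1 (-3.63), Oas1a (-2.98), Cmpk2 (-2.88), Ddx60 (-2.71), Ifi47 (-2.70), Ifi207 (-2.70), Ccl8 (-2.69), Psmb8 (-2.39), Psmb9 (-2.37), Ifit2 (-2.36), Rsad2 (-2.14), H2-T24 (-2.11) and Zbp1 (-2.11).

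The promoters of the 20 lowest genes were searched for the interferon response core, GAAA, any 2 bases, GAAA, on either strand, within 250 bases before and 50 after the RefSeq start. A promoter was listed for 14 of them, and 6 held the core (42.9%). It was held by 3.99% of all genes with a listed promoter, by 3.52% of those tested, by 3.13% of those that rose and by 7.73% of those that fell. Of the genes that fell by at least 1, 31 of 93 with a listed promoter held it (33.3%), against 4 of 89 that rose by at least 1 (4.49%) and 0 of 14 among the 20 highest. These 6 promoters are shown because they belong to the genes that fell furthest. Each line gives the 250 bases before the start, 5′ to 3′ in the gene's direction, with the matches in capitals.
Cxcl10: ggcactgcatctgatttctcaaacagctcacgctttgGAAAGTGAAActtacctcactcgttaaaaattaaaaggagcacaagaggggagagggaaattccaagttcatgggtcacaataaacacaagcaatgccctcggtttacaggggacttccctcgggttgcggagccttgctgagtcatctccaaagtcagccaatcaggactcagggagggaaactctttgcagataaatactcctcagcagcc
Colec11: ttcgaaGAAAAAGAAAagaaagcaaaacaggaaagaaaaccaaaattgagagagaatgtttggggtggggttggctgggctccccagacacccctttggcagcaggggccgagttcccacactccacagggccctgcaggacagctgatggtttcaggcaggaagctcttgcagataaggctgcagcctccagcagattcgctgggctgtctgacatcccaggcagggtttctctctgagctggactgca
Oas1a: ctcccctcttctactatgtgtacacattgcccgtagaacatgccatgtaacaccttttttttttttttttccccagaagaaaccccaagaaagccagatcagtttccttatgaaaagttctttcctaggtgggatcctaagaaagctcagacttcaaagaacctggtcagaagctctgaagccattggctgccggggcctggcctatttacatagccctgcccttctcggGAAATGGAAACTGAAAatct
Ddx60: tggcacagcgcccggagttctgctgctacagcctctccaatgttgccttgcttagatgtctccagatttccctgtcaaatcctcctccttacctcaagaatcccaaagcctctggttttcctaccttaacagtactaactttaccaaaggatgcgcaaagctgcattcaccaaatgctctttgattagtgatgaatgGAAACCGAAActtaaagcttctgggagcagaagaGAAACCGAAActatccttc
Ifi207: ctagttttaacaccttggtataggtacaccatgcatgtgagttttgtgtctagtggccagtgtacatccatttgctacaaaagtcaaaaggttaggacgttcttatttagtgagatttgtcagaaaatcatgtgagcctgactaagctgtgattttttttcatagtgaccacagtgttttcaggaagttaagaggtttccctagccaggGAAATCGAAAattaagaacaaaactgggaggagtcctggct
Rsad2: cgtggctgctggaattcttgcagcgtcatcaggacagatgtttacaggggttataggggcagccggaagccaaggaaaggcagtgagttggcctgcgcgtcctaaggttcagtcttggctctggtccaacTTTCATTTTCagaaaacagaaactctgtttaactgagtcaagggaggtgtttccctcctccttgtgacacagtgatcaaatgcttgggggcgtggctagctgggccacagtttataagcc

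The sequences come from RefSeq on build GRCm38.p6 and cover chr5:92348890-92349139 (minus strand) for Cxcl10, chr12:28623331-28623580 (minus strand) for Colec11, chr5:120907526-120907775 (minus strand) for Oas1a, chr8:61927837-61928086 (plus strand) for Ddx60, chr1:173741810-173742059 (minus strand) for Ifi207 and chr12:26456453-26456702 (minus strand) for Rsad2. In Oas1a the 2 matches overlap and begin 20 and 14 bases before the start. In Ddx60 they begin 53 and 19 bases before it, while the single match of Cxcl10 lies at 213 bases. The match in Colec11, at 244 bases, sits in a run of G and A. A match is a match of letters and no measured site.

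The EBF core CCCNNGGG, which reads the same on both strands, showed no such gap. It was held by 20.9% of genes that rose, 19.0% of genes that fell and 21.2% of genes that were not called, against 21.0% of all genes tested with a listed promoter. Among the 20 highest and the 20 lowest it was found in 4 of 14 each. Cores of the 2 kinds were searched separately, and matches of 1 kind may overlap each other. Lrrc17 and Mxra7 are shown as examples from the genes that rose most, again with the 250 bases before the start and the match in capitals. Mxra7 had 2 matches in the window searched, and the other lies outside the bases printed.
Lrrc17: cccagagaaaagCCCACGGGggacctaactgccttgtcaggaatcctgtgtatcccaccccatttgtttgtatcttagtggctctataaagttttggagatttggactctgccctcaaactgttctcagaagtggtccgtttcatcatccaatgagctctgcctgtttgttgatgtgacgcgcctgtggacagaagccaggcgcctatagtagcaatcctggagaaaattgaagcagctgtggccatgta
Mxra7: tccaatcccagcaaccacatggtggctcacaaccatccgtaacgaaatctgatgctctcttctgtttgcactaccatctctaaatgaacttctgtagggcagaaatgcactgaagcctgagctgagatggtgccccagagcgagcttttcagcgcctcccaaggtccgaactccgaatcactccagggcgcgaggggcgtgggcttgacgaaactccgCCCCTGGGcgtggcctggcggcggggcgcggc

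They cover chr5:21543277-21543526 (plus strand) and chr11:116828047-116828296 (minus strand). Lrrc17, a secreted leucine-rich repeat protein, read 7.96, 7.91 and 7.86 on the scrambled arrays and 10.13, 10.09 and 10.13 with hairpin 1 (2.20, SE 0.081, adjusted p = 3.05e-11), and the groups lay far apart beside their own spread. Mxra7 rose from 8.45, 8.28 and 8.42 to 10.04, 10.40 and 10.32 (1.87). When all probe sets of a gene were averaged these rises were smaller, with a lowest value of 1.17 for Lrrc17 and 1.05 for Mxra7.

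The 20 highest differences ran from 2.34 to 1.63. Dpt, dermatopontin, a small matrix protein that binds decorin, read 9.98, 10.01 and 9.81 on the scrambled arrays and 12.38, 12.03 and 12.43 with hairpin 1 (2.34, SE 0.0929, adjusted p = 7.23e-11). Fmod, fibromodulin, which binds collagen fibrils, read 6.98, 6.55 and 6.67 and then 8.59, 9.37 and 9.25 (2.34). Postn, periostin, a matricellular protein of injured and growing tissue, went from 11.01, 10.60 and 10.71 to 12.84, 12.92 and 13.06 (2.17). The 3 genes share a role around collagen. In each the hairpin 1 arrays lay above every control array, as in 2920 of the 3023 genes that rose. Outside the matrix, St6gal1, the enzyme that caps N-glycans with sialic acid, rose from 5.81, 6.30 and 6.04 to 8.20, 8.34 and 8.18 (2.19). Il17re, a subunit of an interleukin-17 receptor, read 8.47, 8.51 and 8.47 and then 10.50, 10.97 and 10.74 (2.25). Stmn1, stathmin, which takes microtubules apart, read 7.30, 7.17 and 7.33 and then 8.96, 9.38 and 9.20 (1.91). Ear3 (2.08) and Ang3 (2.08) belong to multigene ribonuclease families with near-identical copies, so their probe sets may read relatives as well. The others were Col8a1 (2.01), Ecrg4 (1.83), Wfdc12 (1.82), Cd99 (1.82), Lox (1.77), Arsj (1.75), Col1a1 (1.69), Ccl6 (1.66), Mmp23 (1.64) and Wnk4 (1.63). With the mean of all probe sets of a gene the differences shrank to 1.29 for Fmod, 1.31 for Il17re, 1.14 for St6gal1, 1.12 for Stmn1, -1.22 for Psmb8 and -2.23 for Colec11. All of these 40 genes kept their calls under each of the alternatives in which they were tested.

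**Figure D2:**
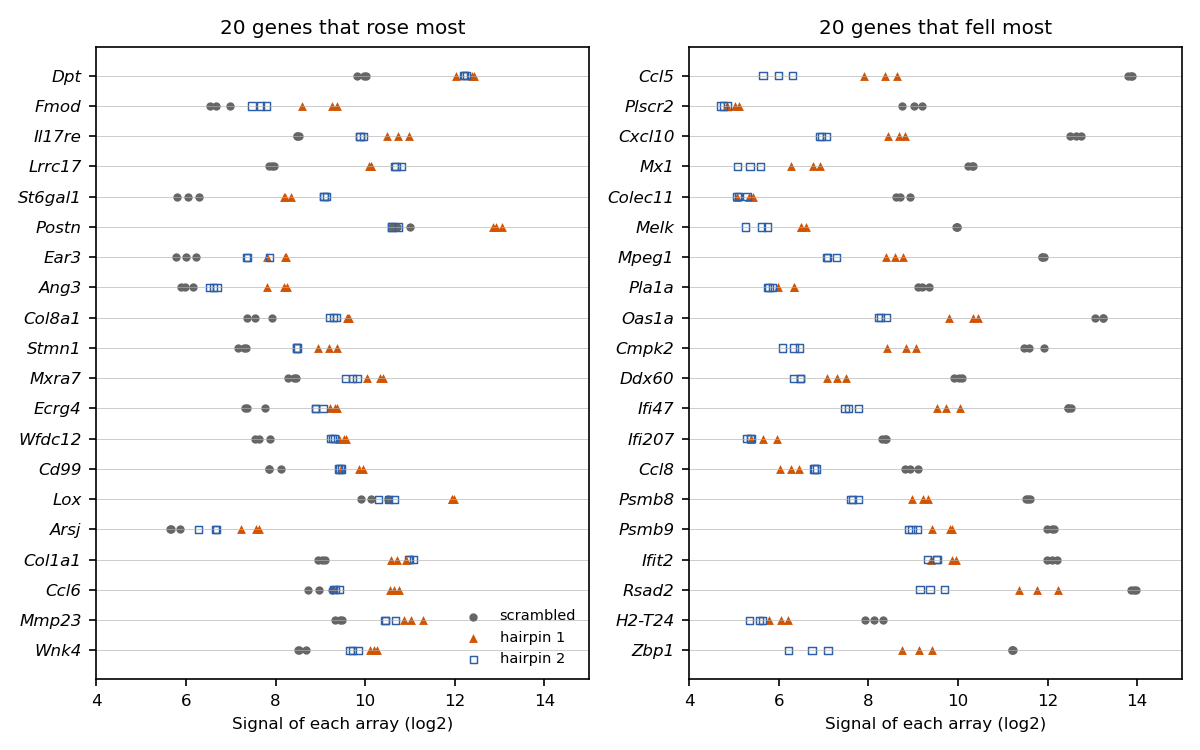
The signal of every array in log2 units is on the horizontal axis for the 20 genes that rose most (left) and the 20 that fell most (right), with filled circles for scrambled, triangles for hairpin 1 and open squares for hairpin 2. In every gene drawn the triangles are apart from the circles, whereas the squares lie beyond the triangles for Ccl5 and St6gal1 and among the circles for Postn.

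Gene classes were then described by role. The 73 classes held 3714 of the genes tested, of which 1017 rose and 356 fell, and their members are compared with the shares over all genes given above. No class has a p-value of its own.

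Growth factors, the ligands of receptor kinases and related receptors, had a share of rises above that of all genes. Of 44 growth factor genes tested, 19 rose and 5 fell (43.2% and 11.4%), with a class median of 0.11. Hbegf, an EGF family ligand, rose from 6.79, 6.62 and 6.92 to 8.09, 8.41 and 8.37 (1.51, SE 0.104, adjusted p = 2.59e-08), while Btc, betacellulin, a ligand of the same receptors, fell from 8.55, 8.51 and 8.44 to 6.98, 7.13 and 7.11 (-1.43, SE 0.0952, adjusted p = 1.84e-08). The pair of ligands thus moved in opposite directions, with no overlap between groups in either, as in most genes that were called. The cysteine-rich matricellular ligands Ccn4 (1.48) and Ccn1 (1.27) rose. Of 15 IGF-system genes, 8 rose and 1 fell, with a median of 0.20. Among them were Igf2 (0.99), the fetal insulin-like growth factor, Igfbp6 (0.58), which binds it, and the protease Htra1 (0.80), which cuts binding proteins.

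In the TGF-beta and BMP pathway, 17 of 51 members rose and 4 fell, and the median of 0.047 was below that of all genes. With equal array medians or quantile normalization the class median lay at 0.0078 and -0.0065, so no direction is given for it. Its ligands Tgfb2 and Tgfb3 rose: Tgfb2 read 7.47, 7.27 and 7.21 and then 8.61, 8.58 and 8.58 (1.28), and Tgfb3 rose by 1.09. Fstl1, a secreted follistatin-like protein, rose from 11.43, 11.11 and 11.18 to 12.52, 12.73 and 12.61 (1.38, SE 0.082, adjusted p = 5.19e-09), and Bmp1, the protease that trims procollagen, by 1.03. In the Wnt pathway 8 of 52 genes rose and 2 fell (15.4% and 3.85%), both below the shares over all genes. The Frizzled receptors split: Fzd3 (1.09) and Fzd2 (0.88) rose, and Fzd7 fell from 9.15, 8.89 and 8.91 to 8.25, 8.30 and 8.06 (-0.78). Ror1, a receptor for Wnt5a, rose by 0.79. In the Notch and Hedgehog pathways 7 of 25 rose and 2 fell, with Gli2, a transcription factor of Hedgehog signalling, higher (0.72) and Lfng, a glycosyltransferase that tunes Notch, lower (-0.64).

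Among receptors, 12 of 35 receptor tyrosine kinases rose and 2 fell. Pdgfra, the PDGF receptor that marks fat cell progenitors, rose from 10.71, 10.24 and 10.45 to 11.31, 11.38 and 11.39 (0.89), and Axl, a receptor that restrains interferon responses, fell from 10.41, 10.23 and 10.37 to 9.53, 9.77 and 9.81 (-0.63). Guidance genes rose in 16 of 48 and fell in 3. Dpysl3 (1.45), an effector of semaphorin signals, Sema6d (1.07), a semaphorin, and Efnb2 (1.05), an ephrin ligand, were the highest of them. Of 64 G protein-coupled receptors, 15 rose and 5 fell. Of these, Ackr3, the scavenger receptor for Cxcl12, fell from 8.06, 8.48 and 8.28 to 7.03, 7.05 and 6.68 (-1.35), and the prostaglandin F receptor Ptgfr (1.10) and the lipid receptors S1pr3 (1.03) and Lpar1 (0.96) rose. Genes of cyclic nucleotide and G protein signalling also stood near the background (14 of 60 higher, 5 lower). Pde2a, a phosphodiesterase, fell by 0.60, and Gnaq rose by 0.60.

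Immediate early genes and MAP kinase phosphatases, which report recent signalling, went both ways: 17 of 56 rose and 10 fell. Egr1, a zinc finger factor that growth factors induce within minutes, fell from 9.81, 9.57 and 9.78 to 8.70, 8.91 and 8.92 (-0.87, SE 0.1, adjusted p = 7.67e-06). Sgk1, a kinase that insulin and glucocorticoids induce, fell by 0.81, and the phosphatase gene Dusp14 rose by 0.86. In the TNF superfamily 6 of 30 rose and 2 fell. Its largest change was in Tnfrsf12a, the receptor of TWEAK, which rose from 11.41, 11.42 and 11.62 to 12.69, 12.84 and 13.02 (1.37, SE 0.078, adjusted p = 2.97e-09). Interleukins and their receptors rose in 4 of 36 and fell in 5. Il6 fell from 7.66, 7.44 and 7.24 to 6.52, 6.43 and 6.42 (-0.99), and Il18bp, the decoy that binds interleukin-18, by 0.73. The interleukin-17 receptor subunit Il17rc rose by 0.72, beside Il17re.

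Antigen presentation was the class with the highest share of falls among those with at least 15 members tested: 18 of 33 fell and 1 rose (54.5% and 3.03%), with a median of -0.28. By array the class median was -0.34, -0.23 and -0.29, and it stayed between -0.34 and -0.23 over the alternatives. Tap1, a chain of the peptide pump, read 10.73, 10.88 and 10.98 and then 9.001, 9.19 and 9.37 (-1.68, SE 0.101, adjusted p = 5.91e-09). The immunoproteasome subunit Psmb8 read 11.57, 11.52 and 11.61 and then 8.98, 9.22 and 9.33. Constitutive proteasome genes, by contrast, rose in 7 of 40 and fell in 5, with a median of -0.013, and their falls were small (Psmc5 -0.40, Psmc6 -0.34).

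Innate sensors and NF-kappa B genes fell in 13 of 37 and rose in 3. Ifih1, the sensor of long double-stranded RNA, read 10.88, 10.88 and 10.80 and then 8.71, 9.02 and 8.98 (-1.95), and Tlr2, a receptor for bacterial lipopeptides, fell by 1.11. Tripartite motif genes, many of them ubiquitin ligases of the antiviral response, fell in 11 of 47 and rose in 6. Trim21 (-1.34), Trim12c (-1.17), Trim30d (-1.15) and Trim30a (-1.14) led these, and the last 3 belong to a cluster of near-identical copies. Among transcription factors Irf7, which sustains interferon responses, fell from 12.53, 12.50 and 12.65 to 10.42, 10.73 and 11.07 (-1.82), Irf1 by 0.80 and Stat2 by 0.79. Apoptosis regulators fell in 14 of 56 (25.0%) and rose in 11, and without the first hairpin 1 array 12 fell and 16 rose, so the balance turned. Their median was -0.10 on that array and 0.038 and 0.047 on the others. Tnfaip3, the A20 inhibitor of NF-kappa B (-1.01), Bid (-0.76), Mlkl, the executioner of necroptosis (-0.70), and Casp1 (-0.65) were the largest changes among them. Complement and coagulation genes split, 4 of 24 higher and 3 lower. Cfb, complement factor B, fell from 12.53, 12.50 and 12.61 to 10.88, 10.86 and 11.12 (-1.59), while Plat, tissue plasminogen activator, read 7.14, 7.26 and 7.35 and then 8.60, 8.60 and 8.60 (1.35).

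The macrophage and leukocyte markers were checked beside these falls. Of 14 measured, 7 lay above the signal filter, 1 fell and 0 rose. Their summed linear signal ran from 1621 to 2562 on the scrambled arrays and from 1164 to 1468 with hairpin 1. The single gene that fell was Laptm5 (10.78, 10.86 and 9.81, then 9.58, 8.96 and 9.23), whose call was lost with the mean of its probe sets (adjusted p = 0.171). Laptm5 was by far the brightest gene of the list, and the drop in the summed signal came from it. Median levels of the list were 5.47 and 5.51, below the filter. The part of such cells in the falls was not tested.

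Several matrix classes had shares of rises above that of all genes. Of 49 proteoglycan and matricellular genes tested, 31 rose and 2 fell (63.3% and 4.08%), with a median of 0.40 and array medians of 0.36, 0.42 and 0.47. The median stayed above 0 under all alternatives, with a lowest value of 0.24. Lum, lumican, a collagen-binding proteoglycan, rose from 10.40, 9.99 and 10.16 to 11.75, 11.86 and 11.70 (1.58). Collagens and their processing genes rose in 24 of 45 and fell in 4, with a median of 0.22. The crosslinking enzymes did not move together. Lox, lysyl oxidase, read 10.50, 9.92 and 10.12 and then 11.95, 11.99 and 11.93 (1.77, SE 0.121, adjusted p = 2.52e-08). Its relative Loxl3 read 10.38, 10.10 and 10.27 and then 8.41, 8.92 and 8.74 (-1.56, SE 0.119, adjusted p = 8.9e-08), so these relatives moved in opposite directions. Col1a1, the main fibrillar collagen, read 9.11, 8.96 and 9.04 and then 10.58, 10.70 and 10.90 (1.69).

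Basement membrane genes were nearer the background, with 6 of 21 higher and 1 lower. The laminin chain Lama2 (1.28) and fibulin Fbln2 (1.10) rose and agrin, Agrn, fell from 11.05, 11.05 and 10.99 to 9.88, 10.22 and 10.31 (-0.89). Matrix proteases and their inhibitors rose in 14 of 46 and fell in 5. Mmp2, gelatinase A, fell from 10.62, 10.26 and 10.45 to 9.10, 9.42 and 9.32 (-1.17, SE 0.0997, adjusted p = 3.22e-07), and Adam10, a sheddase, from 11.19, 11.31 and 11.13 to 10.38, 10.03 and 10.25 (-0.99). In the other direction Mmp23 read 9.49, 9.33 and 9.44 and then 11.01, 11.28 and 10.87 (1.64), and Adamts1 rose by 0.95. Serpins, inhibitors of serine proteases, rose in 6 of 13 and fell in 1, and Serpinf1, an anti-angiogenic protein that adipocytes secrete, rose by 0.42 from a high level (13.40 ± 0.07 on the scrambled arrays, SD, n = 3).

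Genes that attach cells to matrix and shape them gave similar counts. Integrin and focal adhesion genes rose in 13 of 31 and fell in 1, with a median of 0.16 that ran by array from 0.056 to 0.26. Zyx, zyxin, rose from 8.83, 8.87 and 8.91 to 9.89, 10.20 and 10.24 (1.24, SE 0.0972, adjusted p = 1.24e-07), Pxn, paxillin, by 0.81, and Itgav, an integrin chain that binds vitronectin and latent TGF-beta, by 0.65. Of 87 actin and contractile genes, 36 rose and 8 fell (41.4% and 9.20%). Tpm2, a tropomyosin, read 8.97, 8.90 and 9.10 and then 10.47, 10.65 and 10.66 (1.60). Acta2, smooth muscle actin, the usual marker of myofibroblasts, read 10.98, 10.68 and 11.07 and then 11.78, 11.86 and 11.99 (0.97), and Tagln2 (0.97) and Flnc (0.88), which bind actin, rose too.

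Cadherins, claudins and other adhesion genes rose in 17 of 70 and fell in 3 (24.3% and 4.29%), a share of rises near that of all genes. It was above the 9.17% of the dimmest genes and near the 24.1% of those next in signal. Tubulins, kinesins and dyneins rose in 18 of 78 and fell in 4. Cdh11, a cadherin of mesenchymal cells, rose by 1.30 and Cdh13, the adiponectin receptor that is anchored by a lipid, by 1.17. Thy1, a fibroblast surface protein, rose by 0.92. Mapre3, which rides on microtubule ends, rose by 0.75 and the tubulin Tubb6 by 0.71. Krt18, an epithelial keratin, fell from 6.96, 6.63 and 6.98 to 5.39, 5.89 and 5.36 (-1.31) and ended near the floor. Annexins and S100 proteins, which bind calcium at membranes, rose in 10 of 18 and fell in 2, with a median of 0.31. Anxa3 read 8.57, 8.49 and 8.67 and then 9.78, 9.88 and 9.89 (1.28), and S100a16 (0.70) and S100a4 (0.66) rose.

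The route by which matrix leaves the cell also had shares of rises above that of all genes. Secretory pathway genes rose in 34 of 84 and fell in 8 (40.5% and 9.52%), against 34.3% and 12.4% of the genes of highest signal. Kdelr3, a receptor that returns proteins to the endoplasmic reticulum, read 8.90, 8.91 and 8.96 and then 9.94, 10.07 and 10.16 (1.13, SE 0.0985, adjusted p = 3.82e-07). Surf4, a cargo receptor of the endoplasmic reticulum, rose by 1.03 and Copz2, a coat subunit, by 0.69. Golgi glycosyltransferases rose in 24 of 61 and fell in 2. Beside St6gal1, Fut8, which adds core fucose, rose by 0.88 and B3gnt9 by 0.85, while Galnt15, which starts O-glycans, fell from 9.06, 9.05 and 8.89 to 7.84, 7.88 and 7.76 (-1.18). Enzymes of heparan and chondroitin sulfate rose in 17 of 38 and fell in 2, with a median of 0.18. Csgalnact1, which begins chondroitin chains, rose from 8.50, 8.62 and 8.50 to 9.47, 9.75 and 9.41 (1.01), and Dse, which turns chondroitin into dermatan sulfate, fell from 8.36, 8.52 and 8.13 to 7.71, 7.45 and 7.29 (-0.85). Rab GTPases and SNAREs rose in 36 of 113 and fell in 8. Within them Rab30, a Golgi Rab, rose by 0.91, whereas Rab1a, which drives transport from the endoplasmic reticulum, fell from 13.35, 13.31 and 13.39 to 12.82, 12.42 and 12.58 (-0.74).

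Amino acid and one-carbon metabolism had the highest share of rises among classes with at least 15 members tested. Of 46 members, 30 rose and 1 fell (65.2% and 2.17%), and the median was 0.25. By array the class median was 0.17, 0.32 and 0.27. After quantile normalization 25 members rose and 2 fell, and proteoglycan and matricellular genes, with 29 of 49, had the highest share instead. Without the first scrambled array 18 members rose. Odc1, the enzyme that opens polyamine synthesis, read 10.88, 11.08 and 10.80 and then 11.93, 11.99 and 11.84 (1.002, SE 0.0761, adjusted p = 8.4e-08). Mthfd2 and Shmt2, which run the mitochondrial folate cycle, rose by 0.63 and 0.55, with Mthfd2 at 11.34, 11.32 and 11.49 and then 11.91, 12.15 and 11.99. Pccb, a subunit of the carboxylase that handles propionate from branched amino acids, rose by 0.64. These 4 genes were named for their large differences. Their groups did not overlap, as in 2920 of the 3023 genes that rose. Outside the class, a large fall was measured in Gpt2, mitochondrial alanine aminotransferase, which read 9.47, 9.49 and 9.35 and then 7.90, 7.96 and 7.89 (-1.52, SE 0.0829, adjusted p = 1.9e-09).

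Genes of the citric acid cycle and pyruvate use rose in 18 of 37 and fell in 1, with a median of 0.17 and array medians from 0.16 to 0.21. Pdk3, a kinase that shuts off pyruvate dehydrogenase, read 8.83, 8.81 and 8.75 and then 9.98, 10.18 and 10.15 (1.31, SE 0.0841, adjusted p = 1.32e-08). Got1, cytosolic aspartate aminotransferase, and Pck2, mitochondrial PEP carboxykinase, rose by 0.65 and 0.52. The gene that fell, Aco1, also an iron regulatory protein, did so on arrays 2 and 3 and not on array 1 (13.14, 13.42 and 13.10, then 13.35, 12.40 and 12.49). It lost its call under 11 alternatives, and another of its probe sets was called the other way. Mitochondrial ribosomal and translation genes rose in 33 of 104 and fell in 1, with a small median of 0.14. Their share of rises, 31.7%, was below the 34.3% of the genes of highest signal. The arrays differed in this class: its median was 0.038 on the first hairpin 1 array and 0.24 and 0.16 on the others. With the first left out 57 members rose. Only 23 rose without the second hairpin 1 array, and 21 without the first scrambled array. Mrpl34 read 11.38, 11.44 and 11.41 and then 11.93, 12.18 and 12.14 (0.67).

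Other metabolic classes stood nearer the background. Nucleotide synthesis and pentose phosphate genes rose in 12 of 46 and fell in 2. Rrm2, the ribonucleotide reductase subunit of dividing cells, read 6.73, 6.61 and 6.65 and then 7.84, 7.95 and 7.81 (1.21), and Tk1, a salvage kinase of the same cells, rose by 0.78. Xdh, xanthine oxidase, which makes uric acid, fell from 12.81, 12.88 and 12.91 to 11.46, 11.72 and 11.76 (-1.22, SE 0.0807, adjusted p = 1.79e-08). Aldehyde, retinoid and xenobiotic enzymes rose in 30 of 96 and fell in 5. Cbr2, a carbonyl reductase of fat and lung, rose from a high level, 12.47, 12.63 and 12.71, to 13.70, 13.81 and 13.87 (1.19), and Cyp2c70 by 1.43. Antioxidant and glutathione genes rose in 23 of 64 and fell in 5, with Gstt3 (0.91), Blvra, biliverdin reductase (0.75), and Sod3, extracellular superoxide dismutase (0.71), among the highest.

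Lipid enzymes outside triglyceride metabolism were mixed. Phospholipid and sphingolipid enzymes rose in 19 of 82 and fell in 7. Sgms2, sphingomyelin synthase, rose by 0.91 and Plpp1, a lipid phosphatase, by 0.61. The class list also held Enpp4, whose action on lipids was not examined, and it fell from 9.91, 10.04 and 9.82 to 8.87, 8.79 and 8.22 (-1.30). Of 13 eicosanoid enzymes, 4 rose and 1 fell. Ptgis, prostacyclin synthase, read 10.22, 10.04 and 10.21 and then 11.64, 11.52 and 11.75 (1.48, SE 0.0814, adjusted p = 2.1e-09), whereas Pla2g4a, the phospholipase that frees arachidonate, fell from 9.81, 10.11 and 10.06 to 9.56, 9.39 and 9.21 (-0.61). The enzyme that supplies the substrate and the enzyme near the end of the route thus differed in direction. Peroxisome genes rose in 10 of 27 and fell in 1, led by Acox2, an oxidase of branched chains and bile acid precursors, at 7.51, 7.52 and 7.59 and then 8.71, 8.90 and 8.73 (1.24).

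Transport classes other than mitochondrial carriers had shares of rises below that of all genes. Amino acid transporters rose in 7 of 40 and fell in 5, with a median of 0.015 that was below 0 after quantile normalization. Slc38a4, a transporter of neutral and cationic amino acids, read 7.93, 7.84 and 7.93 and then 9.21, 9.55 and 9.39 (1.48), and Slc43a2, which carries large neutral amino acids, fell from 8.99, 8.85 and 9.01 to 8.29, 8.23 and 8.21 (-0.71). Sugar, monocarboxylate and nucleoside transporters rose in 14 of 68 and fell in 9. After quantile normalization 10 rose and 12 fell, and without the second hairpin 1 array 9 rose and 11 fell, so no direction is given for the class. The largest changes there were falls. Slc35b4, which brings UDP-xylose and UDP-GlcNAc into the secretory pathway, fell from 10.19, 10.07 and 10.22 to 9.17, 9.16 and 8.99 (-1.05). Slc35e2 (-0.71) and the organic anion carrier Slco2b1 (-0.68) fell as well. Mitochondrial carriers rose in 11 of 42 and fell in 3, with Slc25a35 at 9.10, 9.25 and 9.23 and then 8.36, 8.30 and 8.36 (-0.85), Slc25a16 lower by 1.06 and Slc25a30 higher by 0.82.

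Metal and ion solute carriers rose in 9 of 57 and fell in 5. The copper importer Slc31a1 (0.53) and the zinc importer Slc39a3 (0.62) rose. Ion channels and pumps rose in 23 of 118 and fell in 8 (19.5% and 6.78%). Atp1b1, a subunit of the sodium pump, read 9.67, 9.54 and 9.35 and then 11.01, 10.80 and 10.65 (1.30), and Kcnab1, a subunit of potassium channels, fell from 7.44, 7.40 and 7.38 to 5.92, 5.63 and 5.75 (-1.64). Of 28 ABC transporters 4 rose and 2 fell, led by Abcg2, an exporter of urate and drugs (0.80).

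Lysosome genes rose in 21 of 71 and fell in 12 (29.6% and 16.9%), both above the shares over all genes. Their median level was 11.4 on the scrambled arrays, and the genes of highest signal had 34.3% and 12.4%. Beside those, the share of rises was lower and the share of falls higher. Tcirg1 (-0.65) and Atp6v1d (-0.59), subunits of the proton pump, fell, and the protease Lgmn (0.61) and the sialidase Neu1 (0.57) rose. Atp6v1d went from 12.52, 12.51 and 12.51 to 12.08, 11.85 and 11.85, and Lgmn from 9.16, 9.14 and 9.25 to 9.62, 9.82 and 9.92. Autophagy genes rose in 12 of 44 and fell in 3, and Atg14, which directs the lipid kinase that starts the autophagosome, read 7.73, 7.76 and 7.97 and then 7.09, 6.99 and 7.06 (-0.77). Mitochondrial import and dynamics genes rose in 15 of 60 and fell in 6, the highest being the protease Oma1 (0.53). Ubiquitin enzymes rose in 32 of 145 and fell in 20. Usp18 (-1.93) and Ube2l6 (-1.18), which serve the interferon-induced modifier Isg15, fell, as did Usp25, from 10.15, 10.44 and 10.10 to 8.82, 7.94 and 7.94 (-1.998). Ube2c, which drives mitotic exit, rose by 1.15.

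Genes that make RNA and protein were spread around the background, with ribosome assembly and splicing on the low side. Ribosome biogenesis genes rose in 5 of 60 and fell in 11 (8.33% and 18.3%), with a median of -0.030. That median was -0.13 on the first hairpin 1 array and 0.025 and 0.019 on the others, and 11 members rose and 9 fell without the first, while after quantile normalization 2 rose and 20 fell (median -0.092). The direction of the class thus turns with the first array left out. Bms1, a GTPase of small subunit assembly, read 12.44, 12.40 and 12.42 and then 11.81, 12.05 and 11.99 (-0.47), and Nop14 fell by 0.38. Splicing factors rose in 19 of 121 and fell in 20 (15.7% and 16.5%). Without the first hairpin 1 array 34 rose and 23 fell. Hnrnpr read 12.30, 12.33 and 12.25 and then 12.17, 10.87 and 11.55 (-0.76) and Hnrnph2 11.92, 12.23 and 11.80 and then 11.68, 10.84 and 10.94 (-0.83), in both of which the first array lay nearest to the controls. Esrp1, an epithelial splicing factor, fell evenly, from 6.47, 6.63 and 6.53 to 5.67, 5.74 and 5.57 (-0.89).

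Cytosolic ribosomal proteins rose in 15 of 46 and fell in 3, mostly by little: Rps7 rose by 0.28, and Rps25 fell from 9.98, 9.90 and 9.91 to 9.27, 8.90 and 9.11 (-0.84). Many of these genes have processed copies in the genome, which a probe set may read too. Translation factors rose in 21 of 64 and fell in 5, and Eif4e3, a cap-binding protein, was the largest change among them (-0.77). Cytosolic aminoacyl-tRNA synthetases were called in 2 of 22 upward and 2 downward, and Iars, the isoleucyl enzyme, rose by 0.31. Cytosolic chaperones rose in 20 of 82 and fell in 6, with the small heat shock protein Cryab at 11.63, 11.57 and 11.51 and then 12.35, 12.65 and 12.54 (0.94) and Chordc1, a partner of Hsp90, lower by 0.59.

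Replication and repair genes rose in 23 of 95 and fell in 6. Cdt1, which licenses origins, read 8.48, 8.53 and 8.45 and then 9.29, 9.45 and 9.41 (0.90), and the polymerase subunit Pole rose by 0.63. Falls were measured in Atm, the kinase that signals DNA breaks, from 10.41, 10.16 and 10.20 to 8.73, 9.23 and 9.02 (-1.26, SE 0.117, adjusted p = 7.51e-07), and in Pola1, the polymerase that primes replication, from 7.45, 7.47 and 7.51 to 6.40, 6.62 and 6.44 (-0.99). The catalytic subunits of the polymerases epsilon and alpha thus moved in opposite directions. Among histone genes 4 of 15 rose and 3 fell, with H2bc18 at 10.66, 10.44 and 10.40 and then 9.07, 9.24 and 9.14 (-1.35) and the centromeric Cenpa higher by 0.90. Histone genes of a cluster are near-identical, so a probe set may not read 1 gene alone. Chromatin regulators rose in 38 of 146 and fell in 11. Cbx5, heterochromatin protein 1 alpha, rose by 0.72, and Ing5, a reader of histone marks, fell by 0.72.

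Transcription factor classes stood near or below the shares over all genes for rises. Homeobox genes rose in 13 of 61 and fell in 4, and Meis1, a cofactor of Hox proteins, read 7.67, 7.89 and 7.47 and then 8.73, 8.82 and 8.84 (1.12). Kruppel-like, ETS, GATA, SOX, forkhead, T-box and related factors rose in 26 of 131 and fell in 14. Among nuclear receptors and cofactors, 9 of 43 rose and 6 fell: Nr2f2, COUP-TFII, which restrains fat cell formation, read 10.20, 10.01 and 10.06 and then 10.63, 10.96 and 10.83 (0.72), and Rxrg, a partner of Pparg, fell from 8.95, 9.05 and 9.06 to 8.26, 8.43 and 8.50 (-0.62). The coactivators Ncoa2 (-0.96) and Ncoa7 (-0.61) fell. Clock genes were mostly not called, 3 of 23 higher and 1 lower, with a median of 0.0006; the gene that fell was Nfil3, a repressor that times the clock's output (8.56, 8.66 and 8.73, then 8.05, 8.28 and 8.36).

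**Figure D3:**
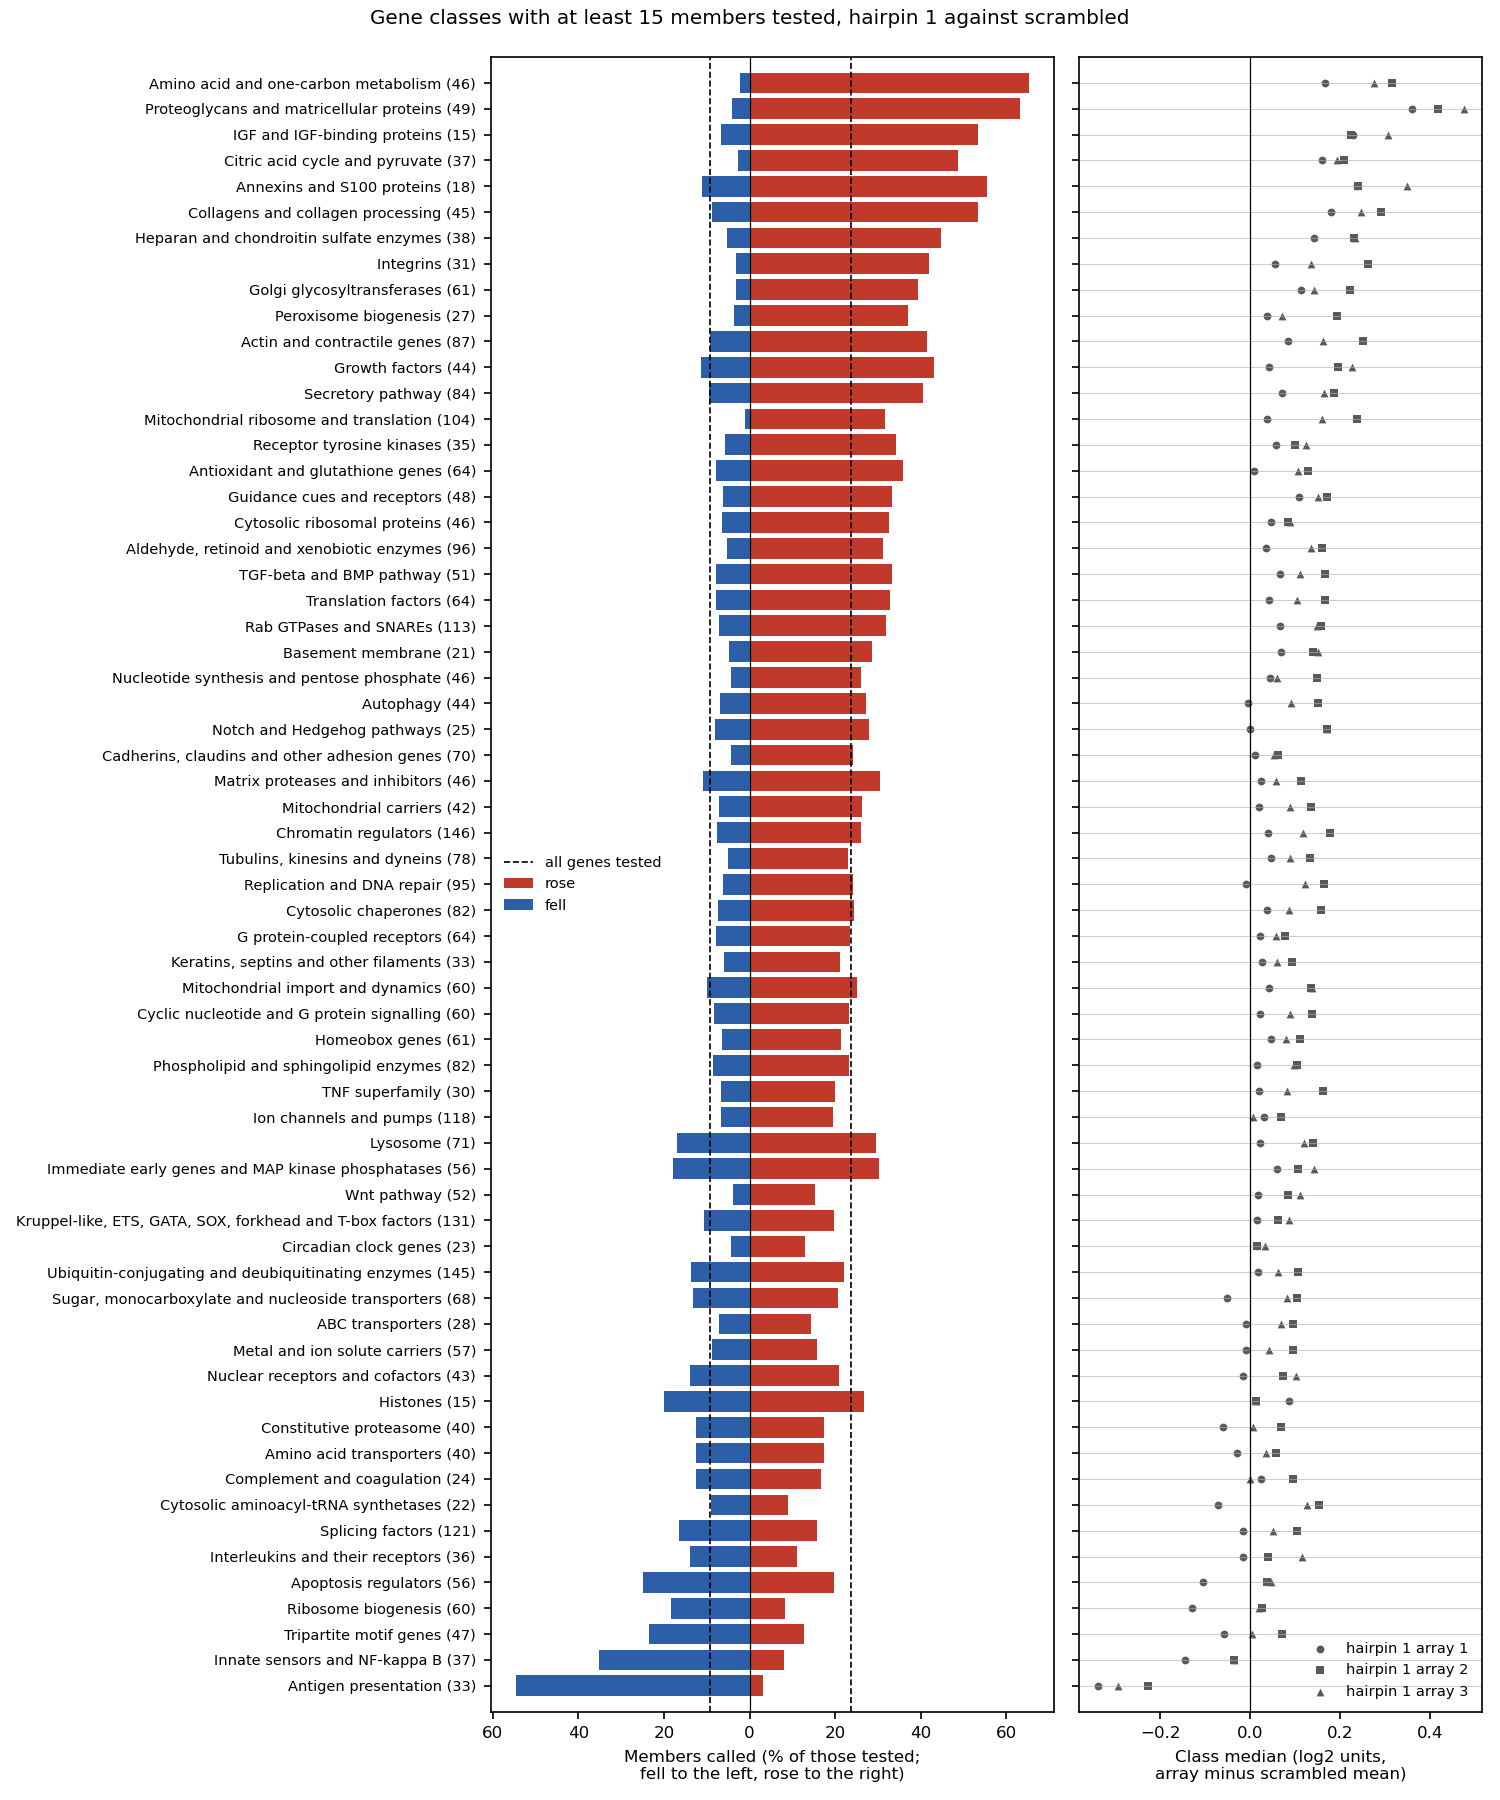
For classes with at least 15 members tested, bars on the left give the percent of members that rose (red, to the right) or fell (blue, to the left), with dashed lines at the 23.7% and 9.23% of all genes tested and the number tested in brackets. Points on the right give the class median on each hairpin 1 array in log2 units, and the first array (circle) lies lowest of the 3 in most classes.

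Classes named for cell identity were read by level. The 15 defining fat cell genes measured had a median level of 12.65 on the scrambled arrays and 12.72 with hairpin 1, and 14 of them were tested. Of these 0 rose and 1 fell, with a median difference of -0.0011. The gene that fell was Pparg, at 13.46, 13.47 and 13.56 and then 13.20, 13.28 and 13.24 (-0.25, SE 0.0459, adjusted p = 0.000533). Lep, leptin, lay below the filter in both groups, at 5.14 on the scrambled arrays. Many of these levels are near the ceiling of the array, where differences are compressed. The cells therefore carried the markers of their label in both groups.

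Of 9 preadipocyte markers tested, 6 rose and 0 fell, with a median of 0.70 that lay between 0.25 (no filter on low signal) and 0.90 over the alternatives. Summed linear signal of the 13 measured was 10208 to 12037 on the scrambled arrays and 18045 to 20212 with hairpin 1. The groups did not overlap in that sum. Ptn, pleiotrophin, a growth factor of preadipocytes, read 12.02, 11.52 and 11.60 and then 12.80, 12.89 and 12.94 (1.16). It was the brightest of the list and gave the largest part of the rise in the sum. The list did not rise as a whole. Dpp4 (mean 6.08 on the scrambled and 6.05 on the hairpin 1 arrays), Pi16 (6.28 and 6.30) and Zfp423 (9.85 and 9.80) differed little. Cd34, Cd24a, Gsc and Mme lay below the filter. Cells that had not matured, and their part in the rise of matrix genes, were not tested. Muscle and pericyte markers rose in 2 of 6 tested and fell in 2. Those that rose were Acta1 (0.69) and Des (0.67), and those that fell were Ckm (-0.38) and Cspg4 (-0.26), whose calls were lost under 5 and 7 alternatives (adjusted p up to 0.09 and 0.407). The list's summed signal went from 1474 to 1580 on the scrambled arrays to 1804 to 1944 with hairpin 1. Endothelial markers lay mostly below the filter, 5 of 12 above it, with 0 called, and summed to 697.3 to 718.2 and 720.2 to 764.7. Epithelial and neural markers rose in 1 of 9 and fell in 3, and bone and cartilage markers in 1 of 6 each way.

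Hairpin 1 was then set directly against hairpin 2, the other hairpin against the same mRNA. Hairpin 2 lowered Ebf1 further. On the Ebf1 probe set with the highest signal its arrays read 8.90, 8.72 and 9.20, -1.25 from scrambled. Hairpin 1 exceeded hairpin 2 there by 0.50 (SE 0.113, adjusted p = 0.00351), so the knockdowns were not equally deep. The part of that in the differences below was not tested. Of all genes tested, 29.1% differed. Genes called against both scrambled and hairpin 2 in the same direction numbered 1316 (10.3%), of which 920 lay above both and 396 below both. Under quantile normalization these were 727 and 606. The 2 comparisons with scrambled share the control arrays, so their values are given side by side and no likeness is drawn from them. Of genes that fell with hairpin 1, 237 were lower still with hairpin 2 by the direct test, and of genes that rose, 355 were higher still. Another 197 were called against scrambled in opposite directions with the 2 hairpins.

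Of the genes above both, Postn stood furthest above hairpin 2. It read 10.58, 10.60 and 10.74 on the hairpin 2 arrays, -0.13 from scrambled, and hairpin 1 exceeded hairpin 2 by 2.30 (SE 0.0946, adjusted p = 9.59e-11). Fstl1 (1.38 with hairpin 1 and -0.21 with hairpin 2) and Thbs1, thrombospondin, which activates latent TGF-beta (1.35 and -0.34), showed the same order, as did Acox2 (1.24 and -0.45). Ang3 was above scrambled with both (2.08 and 0.60). Fst, follistatin, the activin antagonist, read 8.80, 8.46 and 8.51 on scrambled, 9.04, 9.18 and 9.32 on hairpin 1 and 7.61, 7.46 and 7.53 on hairpin 2 arrays. Dlk1, the preadipocyte protein that holds back differentiation, read 9.47, 9.47 and 9.47, then 9.98, 9.96 and 10.57, and 9.06, 8.23 and 8.64 with hairpin 2. Nus1, a subunit of the enzyme that makes dolichol, was also among the 8 (0.33 and -1.37), and its rise was lost with the mean of its probe sets (adjusted p = 0.404).

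Of the genes below both, Mmp2 stood furthest below hairpin 2, at 9.10, 9.42 and 9.32 with hairpin 1 and 11.69, 11.76 and 11.68 with hairpin 2, which lie on either side of the scrambled arrays (-1.17 and 1.27 from scrambled; hairpin 1 minus hairpin 2 -2.44, SE 0.0997, adjusted p = 9.59e-11). Gpt2 likewise lay on either side (-1.52 and 0.84), with hairpin 2 arrays at 10.28, 10.33 and 10.22. The chemokine Ccl7 read 9.99, 9.61 and 9.82 on scrambled and 7.56, 7.93 and 7.95 on hairpin 1 arrays (-1.99, against -0.36 with hairpin 2). Pbx3, a homeobox cofactor (-0.48 and 1.12), Znrf2, a ubiquitin ligase (-1.19 and 0.35), and Lrp11 (-0.74 and 0.73) were called in opposite directions. Ackr3 (-1.35 and 0.28) and Scoc (-1.31 and 0.04) completed the 8. Scoc read 11.50, 11.74 and 11.35 on scrambled and 11.16, 9.52 and 9.98 on hairpin 1 arrays, so arrays 2 and 3 carried most of its fall.

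**Figure D4:**
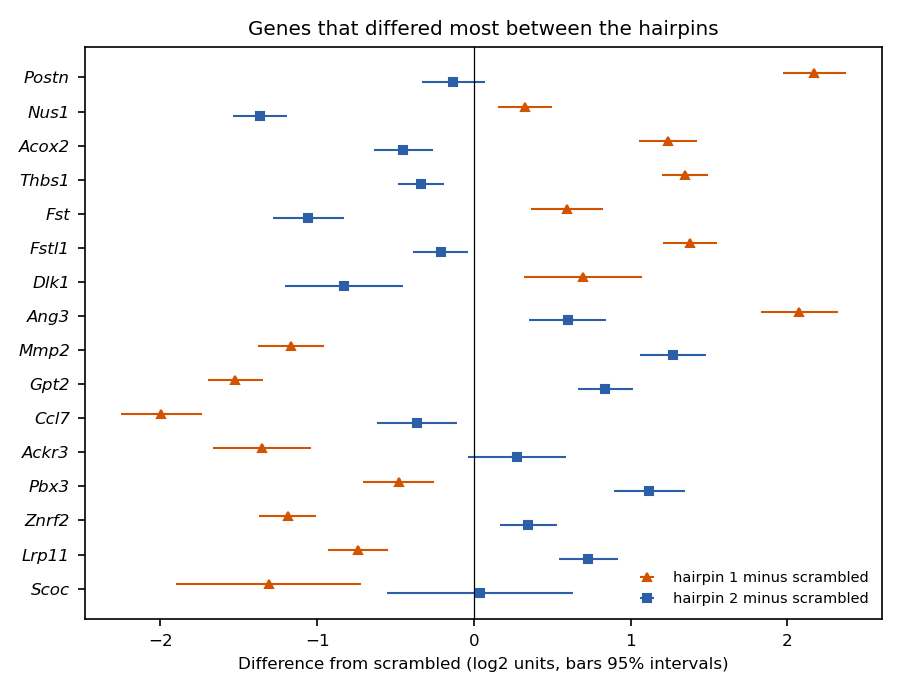
Differences from scrambled in log2 units are on the horizontal axis for the 8 genes furthest above and the 8 furthest below hairpin 2, triangles for hairpin 1 and squares for hairpin 2, with bars for 95% intervals of the fit. Postn lies at 2.17 with hairpin 1 and its hairpin 2 interval spans 0, while Mmp2 and Gpt2 lie on opposite sides of 0.

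Of all genes tested, 17.4% lay above hairpin 2 and 11.6% below by the direct test. By class, it counted 38 of 104 mitochondrial ribosomal and translation genes above hairpin 2, where the class median was -0.0021 from scrambled, against 0.14 with hairpin 1. For amino acid and one-carbon metabolism 18 of 46 lay above hairpin 2 and 6 below, and the medians from scrambled were 0.25 and 0.097. Antigen presentation lay above hairpin 2 in 11 of 33 and below in 3, with medians of -0.28 and -0.24. Proteoglycans and matricellular proteins split, 11 of 49 above and 14 below, at medians of 0.40 and 0.22. Of 45 collagen and collagen processing genes 8 lay above and 16 below, at medians of 0.22 and 0.31, so more of them were higher with hairpin 2.

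The 3 hairpin 1 arrays did not depart from the controls equally. Over all genes tested their medians were 0.0145, 0.12 and 0.0836 above the scrambled mean. Over genes that rose the medians were 0.271, 0.472 and 0.419, and over genes that fell -0.412, -0.403 and -0.433, so the first array was lower in the rises and level in the falls. In 75 genes that fell and 87 that rose the first array alone reached the scrambled range, against 9 and 8 for the second and 3 and 8 for the third. Prkaca, the catalytic subunit of protein kinase A, is such a gene: it read 12.55, 12.80 and 12.55 and then 12.65, 11.54 and 11.72 (-0.66), and its call was lost under 4 alternatives, among them leaving out the second hairpin 1 array (adjusted p = 0.0972). Slc35a5 (9.995, 10.19 and 9.83, then 9.67, 7.75 and 9.002) and Nfkbiz, an NF-kappa B regulator (10.06, 10.19 and 9.98, then 9.88, 8.27 and 9.01), had the first array nearest to the controls too, outside their range. Without the first array 4087 genes rose and 1336 fell, and genes above both other groups went from 920 to 1817. Among 63 classes with at least 15 members tested, counts of rises moved by over 1.5 times in 14 classes without the first hairpin 1 array, in 11 without the second and in 12 without the third. Without the first scrambled array they moved so in 13, without the second in 11 and without the third in 3. Leaving out the first hairpin 1 array took rises in the Wnt pathway from 8 to 16, in cyclic nucleotide and G protein signalling from 14 to 22 and in interleukins and their receptors from 4 to 7. It took them from 21 to 33 among lysosome genes, from 15 to 26 in mitochondrial import and dynamics and from 19 to 30 among phospholipid and sphingolipid enzymes. Rises went from 9 to 14 among metal and ion solute carriers, from 4 to 8 among ABC transporters and from 2 to 7 among cytosolic aminoacyl-tRNA synthetases. After quantile normalization falls outnumbered rises among amino acid transporters (8 and 6), constitutive proteasome genes (8 and 5) and ABC transporters (3 and 2), where rises had been the more frequent.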

How the data were processed

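Arrays of an Affymetrix mouse expression platform were used, 3 per group, grouped by their titles. The deposited values are log2 signals. The authors made them with RMA (no version named), as the submitters' processing notes say, per the labels; RNA had been amplified with a NuGEN kit for small inputs, per the labels' protocols. RMA equalizes arrays, so a shift of all mRNA cannot be seen. The table held 45101 probe sets; 64 controls were left out, and of the rest 34945 named 1 gene symbol, 932 several and 9160 none. Each of 18193 genes was read by its brightest probe set over the 9 arrays, and genes at or above the 30th percentile of means (5.72) were tested, 12735 in all. In limma 3.58.1 (R 4.3.3), lmFit was run on the 9 arrays with a term for each of 3 groups, then eBayes with a mean-variance trend, with Benjamini-Hochberg adjustment over all genes tested and two-sided tests; an adjusted p below 0.05 was a call. The fit was tested on simulated data first. The number of arrays, 3 in a group, limits precision.

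The members and the 73 classes were chosen with earlier results of these data known; 1 class is not reported here. Genes named are the Ebf genes, the 20 highest and 20 lowest differences among called genes, up to 4 called members per class with the largest differences, the 8 highest and 8 lowest against hairpin 2 among genes called the same way in both tests, and cell type markers; models with only a clone or locus name were passed over. Promoters are those of RefSeq on GRCm38.p6, found for 10231 of the genes tested. Alternatives were the 6 arrays alone, quantile normalization, equal array medians, 2 other filters, the mean of a gene's probe sets, array quality weights, no trend, a block for the repeat number and leaving out each array.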

Additional observations from a re-analysis of the deposited data

Results flagged for a closer look

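Against scrambled, 197 genes were called in opposite directions with the 2 hairpins. Among the genes named, hairpin 1 exceeded hairpin 2 by 1.69 log2 units in Nus1, 1.69 in Acox2, 1.68 in Thbs1, 1.65 in Fst and 1.52 in Dlk1, each higher than scrambled with hairpin 1 and lower with hairpin 2. The reverse held for Mmp2 (hairpin 1 minus hairpin 2, -2.44), Gpt2 (-2.36), Pbx3 (-1.60), Znrf2 (-1.54) and Lrp11 (-1.47). Each of these differences was called by the direct limma test between the hairpins. They were picked out because 2 hairpins against the same mRNA moved them in opposite directions, and the cause was not tested.

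Probe sets that name no single gene were not used in the comparisons. Of 4400 above the signal filter, 643 were higher and 280 lower with hairpin 1, with differences from -4.42 to 2.78 log2 units. These probe sets lie outside the genes tested and carry signal that differs between the groups.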

How the results depend on the processing

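With array quality weights 5238 genes rose and 2222 fell, 2461 lay above both scrambled and hairpin 2 and 970 below both. The weights ran from 0.256 for the first hairpin 1 array to 5.35 for the third, with 0.436 for the second. The hairpin 1 side of that fit thus rests mostly on the third array. After quantile normalization 606 genes lay below both. Leaving out 1 array at a time gave 2215 to 4087 genes that rose, 865 to 1336 that fell, 552 to 1817 above both groups and 289 to 566 below both. The 4087 and 1817 came without the first hairpin 1 array, the 552 without the second. The other alternatives stayed within 1.5 times these counts. A replicate block by the numbers in the titles gave 3074 rises, 2963 of them shared with the fit without it, and 1207 falls, 1148 of them shared. Same-numbered arrays deviated from their group means with correlations between -0.29 and 0.25, so the numbers were not taken to pair the arrays. No gene named in the text reversed. Limits: 3 arrays per group, of unknown independence, set the precision, low signal hides changes near the floor, and levels near the ceiling compress them.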
